A study of Mus musculus with 6 samples.

Results

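A set of 9 genes for intermediate filaments was followed in the retinal pigment epithelium (RPE) of light-damaged mice: Gfap, Vim, Nes, Synm, Krt8, Krt18, Lmna, Nefl and Nefm. They were chosen by symbol, taking every non-control probe set that the platform annotation assigns to exactly 1 of these symbols. All 9 genes were found among 18193 genes, with 23 of the 45101 probe sets on the array. Each gene was read from its brightest probe set over all 6 arrays, and the other 14 probe sets served as a check. Light-damaged BALB/c mice were kept in darkness for 1 week, exposed for 1.5 h to white light from fluorescent lamps at 6000 lux, and sampled 24 h later. Dark-adapted BALB/c mice had the same 1 week in darkness without the light. BALB/c is an albino strain, so both groups lack melanin in the RPE. Total RNA of 3 light-damaged and 3 dark-adapted RPE samples was hybridised to 1 Affymetrix array each, and this small number of arrays limits the precision. The labels do not say whether a sample is 1 animal or a pool, so the spread behind each p-value is that of these samples and may be only technical.

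Intermediate filaments are rope-like polymers that give cells and nuclei mechanical strength, and their subunit genes differ by cell type. Simple epithelia, among them the mouse RPE, build them from the keratin pair Krt8 and Krt18. Müller cells and astrocytes of the retina use vimentin and glial fibrillary acidic protein, and a rise of glial fibrillary acidic protein is the classical sign of gliosis after retinal injury. Neurons use the neurofilament proteins, and nearly every nucleus is lined by lamins.

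Expression values are log2 RMA values per probe set, so a positive difference is a higher signal in light-damaged RPE. Differences are light-damaged minus dark-adapted, ± standard error, from a limma model across all 18193 genes with the replicate number as a pair. A gene is said to have risen or fallen where its p, adjusted over all genes by Benjamini-Hochberg, was under 0.05. In that model 4.99% of all genes were called, 3.07% higher and 1.92% lower in light-damaged RPE. Replicate 1 stood apart in both groups: Gapdh control probe sets at the 3′ end exceeded those at the 5′ end by 2.48 (light-damaged) and 2.45 (dark-adapted) log2 units there, against 1.54 to 1.80 on the other 4 arrays. Control probe sets for 18S rRNA averaged 10.72, 13.06 and 12.98 in light-damaged replicates 1, 2 and 3, against 11.38, 13.24 and 13.30 in dark-adapted ones, so they were lower in every light-damaged array than in its pair. The part of these control signals in the differences was not tested. The 9 RPE markers checked averaged 11.84 to 12.43 per light-damaged array and 12.40 to 12.86 per dark-adapted array, against array medians of 7.43 to 7.48. Markers of neighbouring cells were also present: 8 photoreceptor markers averaged 10.89 to 11.65 in light-damaged and 11.61 to 12.27 in dark-adapted arrays, and 8 Müller glia markers 9.67 to 10.53 in light-damaged and 9.87 to 10.37 in dark-adapted arrays.

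Of the 9 genes, Vim, Gfap, Lmna and Synm rose with light damage, and none fell. That is 4 of 9 higher, against 3.07% of all genes. With the replicate as a random effect at its estimated correlation of 0.743, Vim and Synm were still called (3.33% of all genes higher there), while Gfap and Lmna missed (limma adjusted p = 0.0556 and 0.0838). Krt8 and Krt18 were lower in every light-damaged array than in its dark-adapted pair, without passing the threshold. Nes had a difference near 0 with an interval on both sides of it, and the neurofilament genes Nefl and Nefm did not go the same way in all pairs. The median difference of the 9 genes was 0.04, against -0.0001 over all genes. The values of the 2 groups did not overlap for Vim and Synm, both higher in light-damaged RPE; 6.61% of all genes did the same. Without the pairing none of the 9 genes passed, against 0.0495% of all genes. In that fit 2 of the 9 had an unadjusted p under 0.05 in limma. The share of all genes with an unadjusted p under 0.05 was not counted, so such counts, here and for the lists below, have no background beside them. Without the replicate 1 arrays, all 4 rises were called and Krt8 fell (4.55% of all genes higher and 2.3% lower there). Without replicate 2 Vim and Gfap were called (2.15% of all genes higher), and without replicate 3 Vim alone (0.879%).

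**Figure D1:**
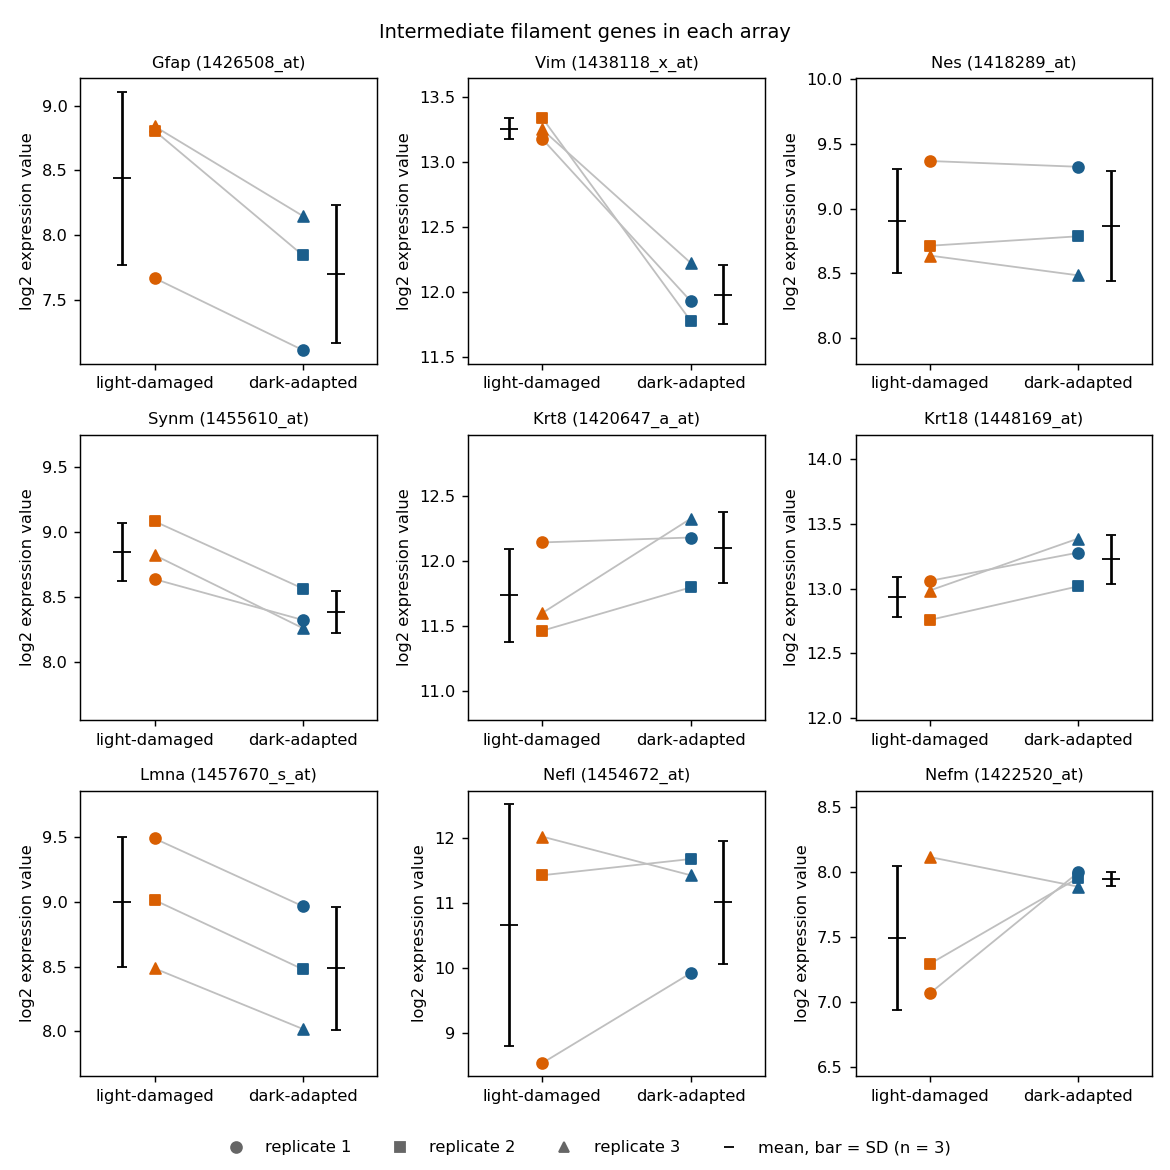
Log2 expression value (y axis, a separate range for each gene) of the 9 genes in the light-damaged and dark-adapted arrays (x axis). Marker shapes give the replicate number, grey lines join arrays of the same number, and black bars show the mean and SD of 3 arrays. Vim lies between 13.18 and 13.34 in light-damaged and between 11.78 and 12.22 in dark-adapted RPE, whereas Lmna runs in parallel lines within pairs.

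Vim encodes vimentin, a filament of many cell types, among them Müller cells, fibroblasts, endothelium and many leukocytes. Its values were 13.18, 13.34 and 13.25 in light-damaged replicates 1, 2 and 3, against 11.93, 11.78 and 12.22 in dark-adapted replicates 1, 2 and 3. Every light-damaged array was above every dark-adapted one, with a clear gap between the groups. Vim averaged 13.26 ± 0.08 in light-damaged and 11.98 ± 0.23 in dark-adapted RPE (SD, n = 3 each). The difference of 1.28 ± 0.12 made Vim 2.43-fold higher (limma adjusted p = 0.0045), with pair differences of 1.25, 1.57 and 1.03. The spread between light-damaged arrays was thus far smaller than the shift. Without the pairing the same difference had an adjusted p of 0.0684, which misses the threshold. The probe set used is an x_at one, a class that can bind related transcripts. The other probe sets of Vim, 1450641_at and 1456292_a_at, gave differences of 1.35 ± 0.13 and 1.58 ± 0.13, each without overlap between groups.

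Gfap encodes glial fibrillary acidic protein, the filament of astrocytes and of reactive Müller cells. Its brightest probe set, 1426508_at, read 7.67, 8.81 and 8.84 in light-damaged replicates 1, 2 and 3, against 7.11, 7.84 and 8.15 in dark-adapted replicates 1, 2 and 3. The groups overlapped, because light-damaged replicate 1 lay below dark-adapted replicates 2 and 3. The replicate 1 array was the lowest of its group in both. Within each pair the light-damaged array was higher, by 0.56, 0.96 and 0.69. Gfap averaged 8.44 ± 0.67 in light-damaged and 7.70 ± 0.53 in dark-adapted RPE (SD, n = 3 each). The difference of 0.74 ± 0.11, that is 1.67-fold, passed with the pairing (limma adjusted p = 0.0168) and not without it (adjusted p = 1.0). The adjusted p was 0.0842 without replicate 3 and 0.0556 with an estimated correlation of the replicates.

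The dimmer Gfap probe sets, both s_at and so also able to bind related transcripts, showed no overlap between groups. Probe set 1426509_s_at read 8.41, 8.31 and 8.42 in light-damaged RPE, against 7.31, 7.07 and 7.31 in dark-adapted RPE. Its difference was 1.15 ± 0.09, or 2.21-fold (limma adjusted p = 0.0024 over all 34945 probe sets with 1 symbol). Probe set 1440142_s_at read 8.68, 8.59 and 8.84 in light-damaged RPE, against 7.32, 6.03 and 7.23 in dark-adapted RPE. It gave the widest difference of the 3, 1.84 ± 0.21 or 3.59-fold (limma adjusted p = 0.0089). The low value of dark-adapted replicate 2 widened that of pair 2 to 2.56, against 1.36 in pair 1 and 1.61 in pair 3. Of the 23 probe sets of the 9 genes 10 were called, against 3.77% of all 34945. The direction was shared by the 3 Gfap probe sets, and the size ran from 1.67-fold to 3.59-fold.

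Synm encodes synemin, a large type IV protein that joins vimentin or desmin filaments and links them to the cell cortex. Its values were 8.64, 9.08 and 8.82 in light-damaged replicates 1, 2 and 3, against 8.32, 8.56 and 8.26 in dark-adapted replicates 1, 2 and 3. The groups did not overlap, although light-damaged replicate 1 lay only slightly above dark-adapted replicate 2. The difference was 0.47 ± 0.09, or 1.38-fold, just under the threshold (limma adjusted p = 0.0450, and 0.6833 without the pairing). The dimmer probe set 1457275_at gave 0.71 ± 0.10, with 6.68, 7.30 and 7.25 in light-damaged and 6.08, 6.38 and 6.64 in dark-adapted RPE. Without replicate 2 the adjusted p was 0.1410, and without replicate 3 it was 0.2741.

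Nes encodes nestin, a type IV filament of neural progenitors that also appears in reactive glia and growing vessels. Its values were 9.37, 8.71 and 8.64 in light-damaged replicates 1, 2 and 3, against 9.32, 8.79 and 8.49 in dark-adapted replicates 1, 2 and 3. The arrays ordered by replicate number and not by group, with replicate 1 highest in both groups. The difference was 0.04 ± 0.09, with a 95% interval of -0.18 to 0.26 (limma adjusted p = 0.8736). The dimmer probe set 1449022_at was higher in every pair, by 0.03, 0.35 and 0.41, and its difference of 0.26 ± 0.11 did not pass (limma adjusted p = 0.2637). The dimmest, 1453997_a_at, was lower in every pair, at -0.11, -0.09 and -0.02, a difference of -0.07 ± 0.08 (limma adjusted p = 0.748).

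Promoters are given for Vim, Gfap and Synm, the 3 of the 4 called genes for which all probe sets were called, as the 250 bases before the start site in RefSeq (GRCm38.p6), 5′ to 3′ on the strand of the gene. They lie at chr2:13574061-13574310 (plus strand), chr11:102897201-102897450 (minus strand) and chr7:67759743-67759992 (minus strand). Capitals mark matches, on either strand, to 5 strings, which do not overlap one another here: TATAAA of the TATA box, CCAAT, which reads as ATTGG on the other strand, GGGCGG of the GC box, TGANTCA of AP-1 and TTCNNNGAA of STAT factors.
Vim: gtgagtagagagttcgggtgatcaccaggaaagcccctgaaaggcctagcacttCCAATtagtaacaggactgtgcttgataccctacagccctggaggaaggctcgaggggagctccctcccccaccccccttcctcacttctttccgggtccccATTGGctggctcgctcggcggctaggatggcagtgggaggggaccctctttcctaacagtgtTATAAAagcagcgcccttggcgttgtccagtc
Gfap: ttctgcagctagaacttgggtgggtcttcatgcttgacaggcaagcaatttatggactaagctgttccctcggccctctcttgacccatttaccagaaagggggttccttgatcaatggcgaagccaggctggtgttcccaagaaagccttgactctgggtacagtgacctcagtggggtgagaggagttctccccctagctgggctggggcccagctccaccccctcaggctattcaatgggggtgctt
Synm: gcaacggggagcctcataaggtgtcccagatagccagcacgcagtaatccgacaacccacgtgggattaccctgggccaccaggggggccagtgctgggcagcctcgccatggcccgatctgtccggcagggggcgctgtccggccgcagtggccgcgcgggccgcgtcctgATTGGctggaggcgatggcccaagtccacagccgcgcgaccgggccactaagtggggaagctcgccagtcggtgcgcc
Vim held TATAAA at -32 from its start site and CCAAT on each strand, and Synm held 1 CCAAT match on the minus strand. Gfap held none of these letter strings in this window. Lmna, which is not printed, has 2 windows, with 1 match to CCAAT and 1 to GGGCGG over both. Of 32851 such windows 12.4% held TATAAA, 33.8% CCAAT, 32.7% GGGCGG, 6.75% TGANTCA and 7.02% TTCNNNGAA. These matches are letters only and were not tested for binding.

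Lmna encodes lamins A and C, which line the inner nuclear membrane and stiffen the nucleus. Its brightest probe set, 1457670_s_at, read 9.49, 9.01 and 8.49 in light-damaged replicates 1, 2 and 3, against 8.96, 8.48 and 8.02 in dark-adapted replicates 1, 2 and 3. The values differed more between replicate numbers than between groups, and the groups overlapped. Within pairs the differences were nearly equal, at 0.52, 0.53 and 0.47. The fitted difference was 0.51 ± 0.09, or 1.42-fold (limma adjusted p = 0.0268, 1.0 without the pairing, and 0.0838 with an estimated correlation of the replicates). Without replicate 2 the adjusted p was 0.0850, and without replicate 3 it was 0.1489.

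The 5 Lmna probe sets did not move alike. Probe set 1421654_a_at read 8.54, 8.29 and 8.27 in light-damaged RPE, against 7.63, 7.43 and 7.45 in dark-adapted RPE. Here the groups were apart by more than their spread, with a difference of 0.86 ± 0.08, which is 1.81-fold (limma adjusted p = 0.0055). Probe set 1452212_at read 7.79, 7.11 and 7.02 in light-damaged RPE, against 7.65, 7.11 and 7.18 in dark-adapted RPE, a difference of -0.0009 ± 0.0954. The remaining probe sets 1425472_a_at and 1426868_x_at gave 0.15 ± 0.10 and 0.11 ± 0.09, and neither passed, though the groups did not overlap for the first. Averaged over its probe sets Lmna rose less, by 0.32 ± 0.07, and missed the threshold (limma adjusted p = 0.0577). Which transcript forms each probe set reads was not analysed here.

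**Figure D2:**
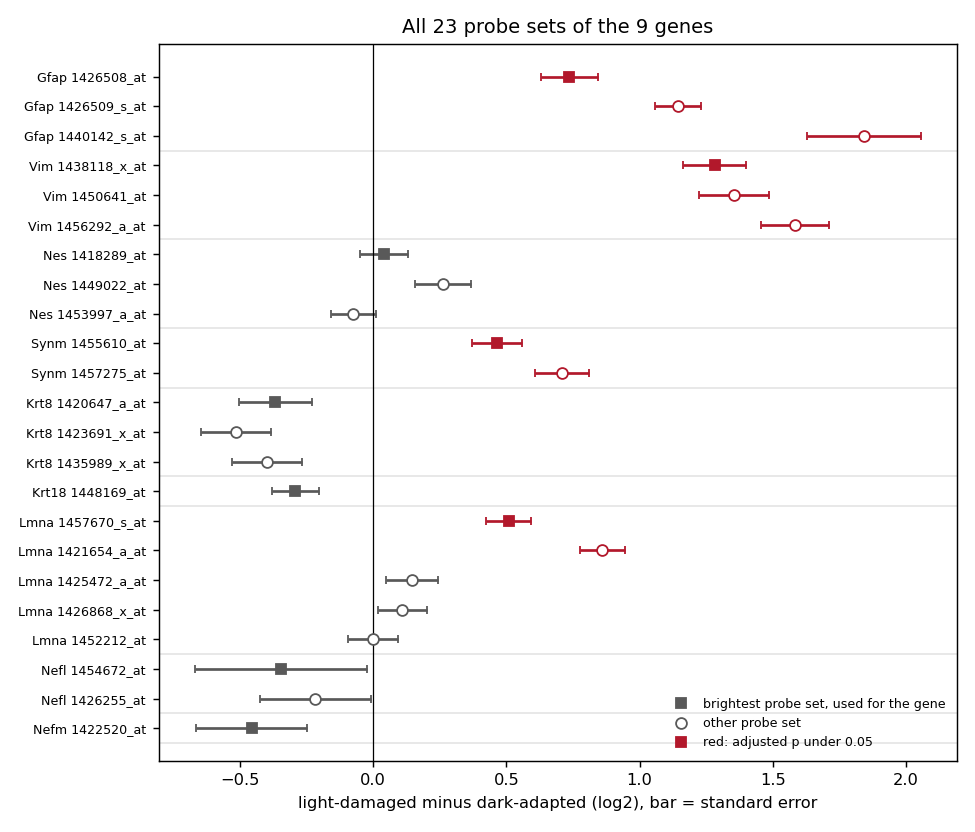
Difference of each of the 23 probe sets (x axis, log2, positive where light-damaged RPE is higher), with standard errors, grouped by gene (y axis). Squares are the brightest probe sets used for the genes, open circles the others, and red marks an adjusted p under 0.05 over all 34945 probe sets with 1 symbol. All probe sets of Vim, Gfap and Synm are red, 2 of 5 are red for Lmna, and none is red for the other genes.

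Krt8 and Krt18 encode the type II and type I keratins that pair to form the filaments of simple epithelia, and their genes are neighbours on chromosome 15. Krt8 read 12.14, 11.46 and 11.60 in light-damaged replicates 1, 2 and 3, against 12.18, 11.80 and 12.33 in dark-adapted replicates 1, 2 and 3. Each light-damaged array was lower than its pair, but the groups overlapped. The pair differences were uneven, at -0.04, -0.33 and -0.73. The fitted difference was -0.37 ± 0.14, with a 95% interval of -0.70 to -0.03 before adjustment (limma adjusted p = 0.2193). Without the replicate 1 arrays it was -0.53 and passed (limma adjusted p = 0.0484). The other probe sets of Krt8, both x_at, gave -0.51 ± 0.13 and -0.40 ± 0.13, lower in all pairs and not past the threshold.

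Krt18 read 13.06, 12.76 and 12.99 in light-damaged replicates 1, 2 and 3, against 13.28, 13.02 and 13.39 in dark-adapted replicates 1, 2 and 3. The light-damaged arrays were again lower within each pair, while the groups overlapped. The difference was -0.29 ± 0.09, with a 95% interval of -0.51 to -0.08 before adjustment (limma adjusted p = 0.1399). The pair differences of -0.22, -0.26 and -0.40 were closer to one another than those of Krt8. Across the 6 arrays the log2 values of Krt8 and Krt18 correlated at r = 0.91, and those of Synm and Krt18 at r = -0.97. These are descriptions over arrays that share the grouping and the replicate effect.

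The windows before the start sites of the keratin genes are shown for the same letter strings, Krt8 at chr15:102004343-102004592 (minus strand) and Krt18 at chr15:102027966-102028215 (plus strand).
Krt8: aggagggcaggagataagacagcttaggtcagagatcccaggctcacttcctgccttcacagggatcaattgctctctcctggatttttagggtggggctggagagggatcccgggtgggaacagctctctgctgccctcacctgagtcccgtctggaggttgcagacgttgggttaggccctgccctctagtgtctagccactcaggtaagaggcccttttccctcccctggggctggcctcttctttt
Krt18: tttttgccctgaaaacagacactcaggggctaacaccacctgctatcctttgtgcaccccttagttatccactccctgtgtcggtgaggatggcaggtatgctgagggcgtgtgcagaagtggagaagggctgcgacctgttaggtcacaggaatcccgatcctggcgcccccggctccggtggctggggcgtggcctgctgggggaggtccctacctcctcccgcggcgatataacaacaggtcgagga
Neither keratin window held a match to any of the 5 strings.

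Nefl and Nefm encode the light and medium neurofilament proteins of axons, and their genes are neighbours on chromosome 14. Nefl read 8.53, 11.42 and 12.02 in light-damaged replicates 1, 2 and 3, against 9.91, 11.67 and 11.42 in dark-adapted replicates 1, 2 and 3. Both replicate 1 arrays were far below the other 4. The difference was -0.35 ± 0.33 with a 95% interval of -1.13 to 0.44 (limma adjusted p = 0.6610), and without replicate 1 it was 0.17. The dimmer probe set 1426255_at went the same way in each pair, by -0.69, -0.43 and 0.47.

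Nefm read 7.06, 7.29 and 8.12 in light-damaged replicates 1, 2 and 3, against 8.00, 7.95 and 7.89 in dark-adapted replicates 1, 2 and 3. The dark-adapted arrays lay close together and the light-damaged ones did not, with replicate 3 above all of them. The difference was -0.46 ± 0.21, with a 95% interval of -0.96 to 0.05 (limma adjusted p = 0.3177). Both neurofilament genes were lower in pairs 1 and 2 and higher in pair 3. Of 6 ganglion cell markers measured none was called, and 0 had an unadjusted p under 0.05 in limma with or without the pairing. Their mean was 8.03 to 8.38 in light-damaged and 8.07 to 8.78 in dark-adapted arrays. Among them Sncg, Slc17a6, Thy1 and Stmn2 were also lower in pairs 1 and 2 and higher in pair 3, while Rbpms and Pou4f1 were not. Of 5 horizontal cell markers none was called, with Calb1, encoding the calcium buffer calbindin, at -0.60 ± 0.18 (limma adjusted p = 0.1409) and 1 of 5 at an unadjusted p under 0.05 in both fits.

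**Figure D3:**
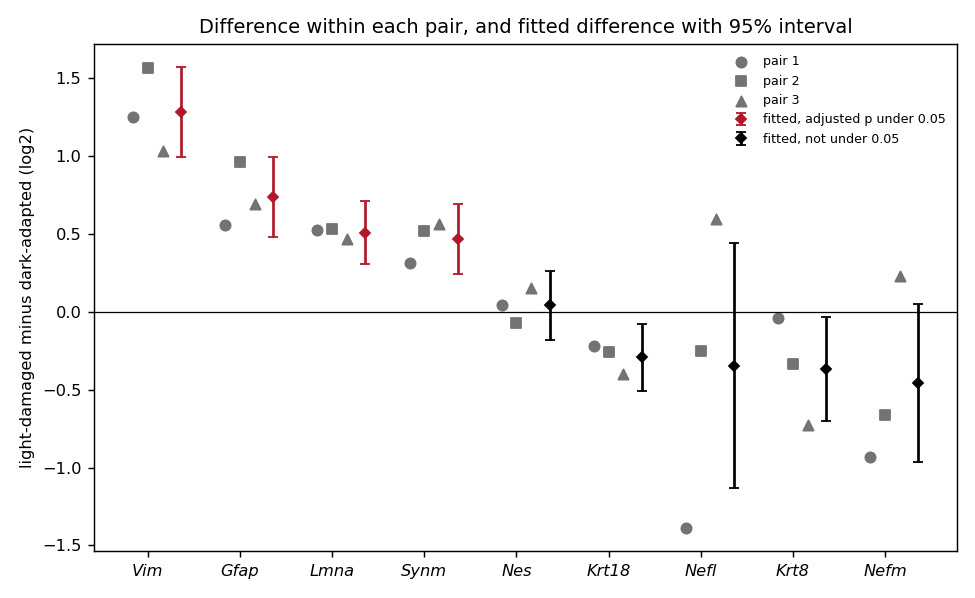
Difference between the light-damaged and the dark-adapted array of each replicate number (grey, y axis, log2) for the 9 genes (x axis, ordered by the fitted difference), with the fitted difference and its 95% interval before adjustment beside them. Vim, Gfap, Lmna and Synm, in red, passed the adjusted threshold with all 3 pairs above 0, while Nefl spans -1.39 to 0.60.

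No other filament gene measured here was called with the pairing and all arrays. Of 42 other keratin genes measured, none was called in limma, while 4 had an unadjusted p under 0.05 with the pairing and 0 without it. Their differences ran from -0.41 to 0.62 with a median of 0.02. Some of them were brighter than Krt18, which averaged 12.93 in light-damaged and 13.23 in dark-adapted arrays. Krt12 averaged 13.96 in light-damaged and 14.00 in dark-adapted arrays, and Krt6b 13.76 and 13.58. Keratins other than Krt8 and Krt18 were thus strongly present in these samples. Which cells the keratin signals came from, those of Krt8 and Krt18 included, was not tested. Krt14, a basal epithelial keratin, stood at 0.62 ± 0.21 (limma adjusted p = 0.1809), and Krt10, a keratin of differentiating epidermis, at -0.29 ± 0.09 (adjusted p = 0.1378). Krt1 and Krt23 gave 0.39 ± 0.13 and -0.41 ± 0.12. Without replicate 1 limma called Krt1, higher by 0.55, and without replicate 2 it called Krt15, lower at -0.80.

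Of the 8 remaining type III to VI genes, none was called, with 1 at an unadjusted p under 0.05 in limma with the pairing and 0 without it. The heavy neurofilament gene Nefh was at 0.39 ± 0.14 (limma adjusted p = 0.1956) with pair differences of 0.20, 0.18 and 0.79, all above 0. Des, the muscle and pericyte filament desmin, was at 0.19 ± 0.09, and the B-type lamin gene Lmnb2 at 0.20 ± 0.10. Prph, encoding peripherin of peripheral neurons, was at -0.19 ± 0.10. Without replicate 1 limma called the lens filament gene Bfsp1, higher by 0.56.

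Of 11 genes for proteins that bind or chaperone filaments, 1 rose. This was Plec, encoding plectin, which ties intermediate filaments to junctions, actin and the nucleus, at 0.70 ± 0.13 or 1.63-fold (limma adjusted p = 0.0377). Plec was not called without replicate 2 or replicate 3, with an estimated correlation of the replicates (adjusted p = 0.0733) or averaged over its probe sets (adjusted p = 0.0620). Without replicate 1 Eppk1, encoding the keratin-binding epiplakin, was called as well, higher by 0.52. The small heat shock protein gene Cryab was at 0.58 ± 0.26 without passing, and Macf1, a linker of actin and microtubules, at -0.46 ± 0.13 (adjusted p = 0.1158). Of 15 genes of the nuclear envelope and lamin processing none was called, while 4 had an unadjusted p under 0.05 in limma with the pairing and 2 without it. Banf1, a chromatin protein that binds lamin A partners, was closest at 0.42 ± 0.09 (limma adjusted p = 0.0505), and passed with an estimated correlation (adjusted p = 0.0375). Syne3 and Syne2, encoding nesprins, which join the nucleus to the cytoskeleton, were at -0.36 ± 0.10 and -0.37 ± 0.10. Without replicate 1 Syne3 was called, lower at -0.44.

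**Figure D4:**
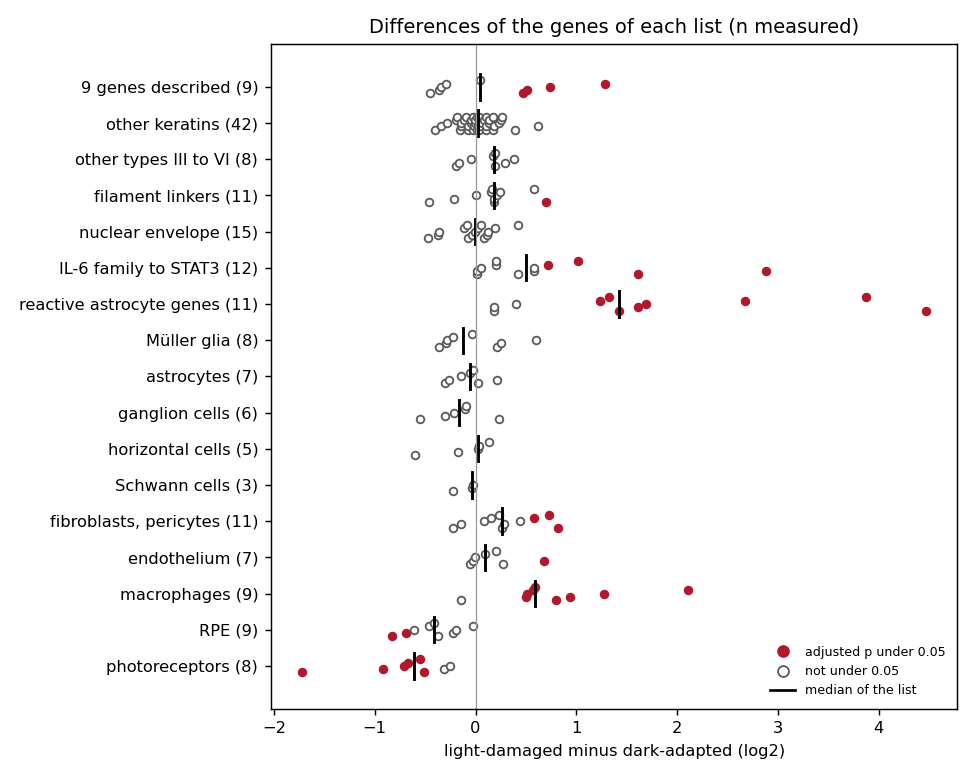
Difference (x axis, log2, positive where light-damaged RPE is higher) of each measured gene in 17 lists (y axis, number measured in parentheses). Red points had an adjusted p under 0.05 over all genes and black bars are list medians. The called genes of the macrophage and reactive astrocyte lists all lie above 0, the Müller glia and astrocyte marker lists have no called gene, and the called RPE and photoreceptor genes lie below 0.

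Gfap and Vim are known to rise in reactive glia, and Gfap is known to be induced through the IL-6 family and STAT3. Of 12 measured genes of that route, 4 rose and none fell, against 3.07% of all genes higher and 1.92% lower. All 12 had a difference above 0, from 0.01 to 2.89, with a median of 0.50 (-0.0001 over all genes). Socs3 rose 7.39-fold, the receptor chain gene Osmr 3.05-fold, the transcription factor gene Stat3 2.02-fold and Il6st 1.64-fold. The part of this route in the Gfap values was not tested. The ligand genes Clcf1 and Lif did not pass, at 0.58 ± 0.12 and 0.42 ± 0.09 (limma adjusted p = 0.0510 and 0.0542). Both passed with an estimated correlation of the replicates (adjusted p = 0.0387 and 0.0278), which made 6 of 12, and Clcf1 also without replicate 2, at 0.74 (adjusted p = 0.0184). Of 11 genes known to rise in reactive mouse astrocytes 8 were higher past the threshold, with a median of 1.42 over the list, and 4 without replicate 3. Several of them, such as Cd44 and Timp1, are also made by other cells. Osmr is in both lists and is counted in each. Both lists hold genes already known to be high in these data when the lists were written.

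No marker of resting glia was called. Of 8 Müller glia markers, 4 had an unadjusted p under 0.05 in limma with the pairing and 0 without it. Glul, encoding glutamine synthetase, was at -0.22 ± 0.09, and the water channel gene Aqp4 at -0.29 ± 0.11. The progenitor and glial transcription factor gene Sox2 was at 0.60 ± 0.20, and passed without replicate 1 at 0.90 (limma adjusted p = 0.0105). Of 7 astrocyte markers measured none was called, and 0 had an unadjusted p under 0.05 in limma with or without the pairing. Without replicate 2 the receptor gene Fgfr3 was called, lower at -0.59. Astrocyte markers averaged 9.73 to 10.45 in light-damaged and 9.98 to 10.52 in dark-adapted arrays.

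Some markers of other cells that make vimentin rose beside Vim. Of 9 macrophage markers 8 rose, with a mean of 10.20 to 10.26 in light-damaged and 9.38 to 9.49 in dark-adapted arrays. Without replicate 2 or replicate 3 the count was 3 of 9. Csf1r, the marker that was not called, was lower in every pair, with a difference of -0.15 ± 0.09. Of 11 fibroblast and pericyte markers 3 rose, with a mean of 10.46 to 10.67 in light-damaged and 10.18 to 10.38 in dark-adapted arrays. That count was 6, 1 and 0 without replicates 1, 2 and 3, and 1 with an estimated correlation, where Tagln and Pdgfra missed (limma adjusted p = 0.0633 and 0.0675). Of these 11, Pdgfrb and Cspg4 had differences below 0, at -0.22 ± 0.16 and -0.14 ± 0.10. The means of the macrophage list, and those of the fibroblast and pericyte list, did not overlap between groups. Of 7 endothelial markers 1 rose, Vwf (0.68 ± 0.11), and none without replicate 3 or with an estimated correlation (limma adjusted p = 0.0720). The means of 7.39 to 7.76 in light-damaged and 7.33 to 7.48 in dark-adapted arrays overlapped. The part of these cells, or of the RPE cells themselves, in the rise of Vim was not tested. Of the RPE markers 2 of 9 fell, 0 without replicate 3, and all 9 had a difference below 0, beside the lower Krt8 and Krt18 values. Of 8 photoreceptor markers 6 fell, 4 without replicate 1 and 2 without replicate 2 or 3. With an estimated correlation 3 fell, and Pde6b, Crx and Rom1 missed (limma adjusted p = 0.0572, 0.0706 and 0.0819). Without the pairing limma called 1 gene of all the lists named here, Serpina3n of the reactive astrocyte list. The part of a lower RPE share in the keratin values was not tested, and in such whole-tissue RNA fewer cells of a type and less RNA per cell cannot be told apart. Of 3 Schwann cell markers measured none was called, and 0 had an unadjusted p under 0.05 in limma in either fit.

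With each gene read from its brightest probe set, the genes with the most similar profiles over the 6 arrays differed between Vim and Gfap. For Vim they were Prex1, Spcs3, Fkbp1a, Myof and Plin2, with Pearson correlations of 0.991 to 0.998 across 6 arrays. Myof, encoding the membrane repair protein myoferlin, and Plin2, encoding a lipid droplet coat protein, rose 2.42-fold and 2.44-fold. For Gfap they were Uck2, Fbl, Tulp3, Abce1 and Tgfbr2, at 0.995 to 0.999. In all of these the replicate 1 array was the lowest of its group, as in the brightest Gfap probe set. In the dimmer Gfap probe sets 1426509_s_at and 1440142_s_at replicate 2 was the lowest of each group. Correlations with those probe sets were not computed. With 6 arrays and a shared replicate effect, such correlations are a description. Between the brightest probe sets, the correlation of Gfap with Vim was 0.67, that of Vim with Synm 0.78 and that of Nes with Lmna 0.83.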

How the data were processed

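RPE RNA was measured on 6 arrays, 3 light-damaged and 3 dark-adapted. The deposited values are log2 expression per probe set. Per the submitters' processing notes the authors used RMA (background correction, normalization across arrays, summary of probes), with no version given. The log2 unit was inferred from the range of the values. RMA understates differences of very dim and very bright probe sets, and there are no detection calls. Of 45101 probe sets, 64 were controls, 34945 had 1 gene symbol in the platform annotation of 2016, 932 had several and 9160 had none used here. All 23 probe sets of the 9 genes matched the RefSeq gene table by Entrez number. The brightest probe set stood for each of 18193 genes.

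The comparison used limma 3.58.1 (R 4.3.3; two-sided moderated test after lmFit and eBayes, Benjamini-Hochberg over all genes), with the replicate number as a block and 2 residual degrees of freedom. The labels number replicates 1 to 3 in both groups without naming a shared animal or day. After subtraction of the group mean, arrays of one number correlated across genes (r = 0.89, 0.62 and 0.86, all over 0.1), and the numbers were taken as pairs. Light-damaged replicate 3 and dark-adapted replicate 2 also correlated (r = 0.65), as did light-damaged replicate 2 and dark-adapted replicate 3 (r = 0.61). The replicate 2 arrays thus correlated with each other (r = 0.62) about as much as with replicate 3 of the other group. Deviations from a group mean of 3 arrays are not independent. With replicate 1 apart in both groups, the other arrays tend to correlate across groups however they are numbered. The bound of 0.1 thus says little about numbers 2 and 3, whose assignment is weaker than that of replicate 1. Intervals are at 95%.

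The genes, lists, fit and alternatives were chosen with earlier results of these data known. Genes named beyond the 9 were up to 4 per list with the smallest p, further called filament genes and the 5 most alike to Gfap and to Vim, clone names left out. Genes called or lost only under an alternative were named after their values were seen. So were Lif, Clcf1, Cd44, Timp1, Krt12, Krt6b, Csf1r, Pdgfrb, Cspg4, Thy1 and Stmn2. Promoter sequences are from RefSeq (GRCm38.p6). It held windows for 7 of the 9 genes. Alternatives covered the block, normalization, a pseudocount of 16, a filter on the dimmest 25% of genes, the mean over probe sets, limma settings and leaving out a replicate.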

Additional observations from a re-analysis of the deposited data

How the results depend on the processing

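Of 99 values of the 9 genes under 11 alternatives, 84 kept their direction and their side of the threshold. These 84 include genes that were not called and stayed so. Another 12 were lost calls, all of them of Vim, Gfap, Synm or Lmna. In 2 the sign turned, and 1 was the gained call of Krt8 without replicate 1. Genes called numbered 908 with the replicate block, 559 higher and 349 lower, and 9, all higher, without a replicate block, where 0 were lower and 0 of the 9 filament genes passed. Leaving out both arrays of a replicate number, with 1 residual degree of freedom, gave 228 to 1245 genes, 160 to 827 higher and 68 to 418 lower, the fewest without replicate 3, and 1 to 5 of the 9 genes called, 1 to 4 of them higher. With the replicate as a random effect 885 genes were called, 605 higher and 280 lower, and 2 of the 9, both higher (Vim and Synm), Gfap and Lmna having adjusted p-values of 0.0556 and 0.0838. Vim was called in every alternative but the one without the block. Gfap missed without replicate 3 (adjusted p = 0.0842), Synm without replicates 2 and 3, and Lmna without replicates 2 and 3 (0.0850 and 0.1489) and averaged over probe sets (0.0577). Signs turned, with neither gene called, for Nes without replicate 3 (range -0.014 to 0.098 without a replicate) and for Nefl without replicate 1 (range -0.82 to 0.17). Of the lists, macrophage markers gave 3 called genes without replicate 2 or 3 and 0 without the block, reactive astrocyte genes 4 without replicate 3, 5 with the mean over probe sets and 1 without the block, and photoreceptor markers 2 without replicate 2 or 3. With the random effect, photoreceptor markers gave 3, fibroblast and pericyte markers 1 and endothelial markers and filament-binding genes 0, the last also with the mean over probe sets. The cause of these losses was not tested. Without detection calls, a limit from dim signal was not set.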
